A study of Mus musculus with 3 samples.

Results

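The Rab genes encode small GTPases that direct membrane traffic. They were taken as the protein-coding genes whose symbol is Rab followed by digits and at most 1 letter from a to d, which gave 59 members among the 54532 genes of the deposited files. Cells came from the dorsal dura mater, the outermost of the meninges, of mice carrying 4T1-DM cells, a dural metastasis model built on the 4T1 mouse mammary carcinoma line. All 3 groups carried the tumour cells and differed in treatment, which was PBS, ZOL or ZOL+Ang2 (written so in the labels, without expansion). Dura was taken 12 days after inoculation and digested to single cells, and CD45-negative cells positive for CD31 and podoplanin, a combination used for lymphatic endothelium, were profiled by RNA sequencing. Material of 6 mice was mixed per group, so each group was 1 library, with no replicates and no test. The strain, sex and age of the mice and the doses are not given in the labels.

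A Rab protein cycles between a GTP-bound form, which sits on a membrane and recruits effectors, and a GDP-bound form, which GDP dissociation inhibitors carry through the cytosol. Exchange factors switch it on and GTPase-activating proteins switch it off, and each Rab marks its own compartment, from the endoplasmic reticulum and Golgi to early, recycling and late endosomes and secretory vesicles. Membrane attachment needs geranylgeranyl lipids, which Rab geranylgeranyl transferase adds to cysteines near the carboxyl end with the help of a Rab escort protein. In endothelial cells, Rab proteins act in the recycling of receptors and junction proteins and in the release of storage granules.

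The 3 libraries differed in depth and in their marker genes. The recovered reads came to 1675532 in PBS, 16586760 under ZOL and 9204901 under ZOL+Ang2, so values in PBS were the least precise. Pecam1, which encodes CD31, had 2 reads in PBS against 7454 under ZOL and 1556 under ZOL+Ang2, although 16 of 17 pan-endothelial markers had reads in PBS. Of the defining lymphatic markers, Lyve1 had 0 reads in every library and Prox1 had 2 reads in PBS and 0 in the others, while Pdpn, which encodes podoplanin, had 35 reads in PBS, 1059 under ZOL and 1496 under ZOL+Ang2. Flt4 had 1, 1113 and 209 reads, Mmrn1 288, 181 and 105, and Reln 185, 135 and 69. The 8 lymphatic markers, listed under 9 gene IDs of which 5, 7 and 6 had reads, summed to 275, 179.5 and 219 CPM (CPM is the counts of a gene scaled to a common library size). Ptprc, which encodes CD45, had reads in all 3 libraries. The summed level of 6 fibroblast markers was 343 CPM in PBS, 454 CPM under ZOL and 10780 CPM under ZOL+Ang2, and that of 12 leukocyte markers was 1608, 304 and 2407 CPM. In the same order, 5 erythroid markers summed to 191, 5.54 and 25144 CPM, 17 pan-endothelial markers to 2068, 3888 and 1616 CPM, and 8 epithelial and carcinoma markers to 591, 4738 and 4561 CPM, with reads for 5, 8 and 6 of the latter. In these bulk samples, fewer cells of a type and less RNA per cell cannot be told apart, and the part of other cell types in the values below was not tested.

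The coding ends of the members hold the cysteines known to receive the lipid. In the GENCODE M21 gene models, every one of the 59 members had at least 1 cysteine codon close to its stop codon. In 15 members the last 2 codons were cysteines, and in 20 members the last codon and the third from the end were. A cysteine pair followed by 1 further codon was found in 3 members, by 2 codons in 6 and by 3 codons in 6. In 9 members, Rab8a, Rab8b and Rab13 among them, the fourth codon from the end was a cysteine, and neither the fifth nor any of the last 3 was. The last 30 coding bases of 10 members on which the results turn are shown 5′ to 3′ on the coding strand, with cysteine codons in capitals. Each stretch is exonic coding sequence in the final coding exon, and positions are in GRCm38 (mm10).
Rab1a, chr11:20224813-20224842, plus strand: ccagtcaagcagtcaggtggaggcTGCTGC
Rab1b, chr19:5100381-5100410, minus strand: cctgtgaagcctgctagcggtggcTGCTGC
Rab31, chr17:65654409-65654438, minus strand: cagagcttgcaagccagccgtcggTGCTGC
Rab4a, chr8:123834098-123834127, plus strand: caggctccaagtgcacaggagTGTggcTGC
Rab3c, chr13:110061818-110061847, minus strand: cctcctccaccacagcccaacTGTggcTGC
Rab7, chr6:88000438-88000467, minus strand: gccaaggcctccgcagaaagcTGCagtTGT
Rab11a, chr9:64716852-64716881, minus strand: aagccaaaggtgcagTGCTGTcagaacatc
Rab11b, chr17:33747671-33747700, minus strand: cccaacaagctgcagTGCTGCcagagcctg
Rab8a, chr8:72180105-72180134, plus strand: aggaccagcttcttccggTGCagtctcctg
Rab13, chr3:90225551-90225580, plus strand: gacaagaagaagaacaagTGCttgttaggc
Rab1a, Rab1b and Rab31 end in a cysteine pair, and Rab4a, Rab3c and Rab7 end in cysteines 1 codon apart. Levels per length (RPKM, as deposited) can be compared between genes within a library, and members ending in a cysteine pair took 15.0% of the summed Rab RPKM in PBS, 44.7% under ZOL and 46.6% under ZOL+Ang2. Members ending in cysteines 1 codon apart took 41.3%, 19.3% and 20.2%, with Rab4a the largest part in PBS. These are shares of a sum, and a lower share need not mean a lower level. In CPM, members ending in cysteines 1 codon apart summed to 375 in PBS, 558 under ZOL and 542 under ZOL+Ang2. Those ending in a pair summed to 137, 1030 and 948 CPM. Such comparisons with PBS depend on the scaling, as given below.

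Rab genes took 0.107% of all reads in PBS (exact 95% binomial interval 0.102 to 0.112), 0.260% under ZOL (0.257 to 0.262) and 0.221% under ZOL+Ang2 (0.218 to 0.224). The amplified reads carry no molecular identifiers, so these and all later intervals cover counting error at most. Among low counts, 61.0% were even numbers in PBS, 53.2% under ZOL and 51.0% under ZOL+Ang2. Single reads may thus not be independent of each other, most of all in PBS, and the intervals may then be too narrow. The reason was not tested. The summed Rab level was 966 CPM in PBS, 2743 CPM under ZOL and 2322 CPM under ZOL+Ang2, lowest in PBS. Reads were found for 33 members in PBS, 46 under ZOL and 39 under ZOL+Ang2, or 55.9%, 78.0% and 66.1% of the family, beside 49.7%, 61.2% and 52.6% of all protein-coding genes. At least 10 reads were reached by 17, 42 and 33 members, beside 10389, 14855 and 11850 genes of any kind, also fewest in PBS. After thinning of every library to the smallest total, 17, 38 and 29 members reached 10 reads. The matching number for other genes after thinning is not given here. These counts alone therefore do not set the Rab genes apart.

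Of the 59 members, 25 had reads in all 3 libraries and 9 in none. The 9 without reads were Rab3b and Rab43, the epithelial Rab17 and Rab25, Rab7b, Rab33a, Rab36, Rab39 and Rab44; the limit of 3 reads for such a gene is 1.61 CPM in PBS, 0.191 CPM under ZOL and 0.342 CPM under ZOL+Ang2. A further 12 members had reads under ZOL and ZOL+Ang2 and none in PBS, among them Rab5c, Rab21, Rab24 and Rab3d. Another 5, Rab4a, Rab33b, Rab3a, Rab27a and Rab27b, had reads in PBS and ZOL and none under ZOL+Ang2. Reads were confined to ZOL for Rab13, Rab20, Rab35 and Rab40b, to PBS for Rab9b and Rab39b, and to ZOL+Ang2 for Rab15. Rab3c had reads in PBS and ZOL+Ang2 and none under ZOL. These patterns were not counted over all genes, and PBS had the fewest reads, so they describe the members alone. Among all genes of at least 20 CPM under ZOL, 26.5% had 0 reads in PBS and 9.99% under ZOL+Ang2. Of the members at that level, 17.9% had 0 reads in PBS and 17.9% under ZOL+Ang2.

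**Figure D1:**
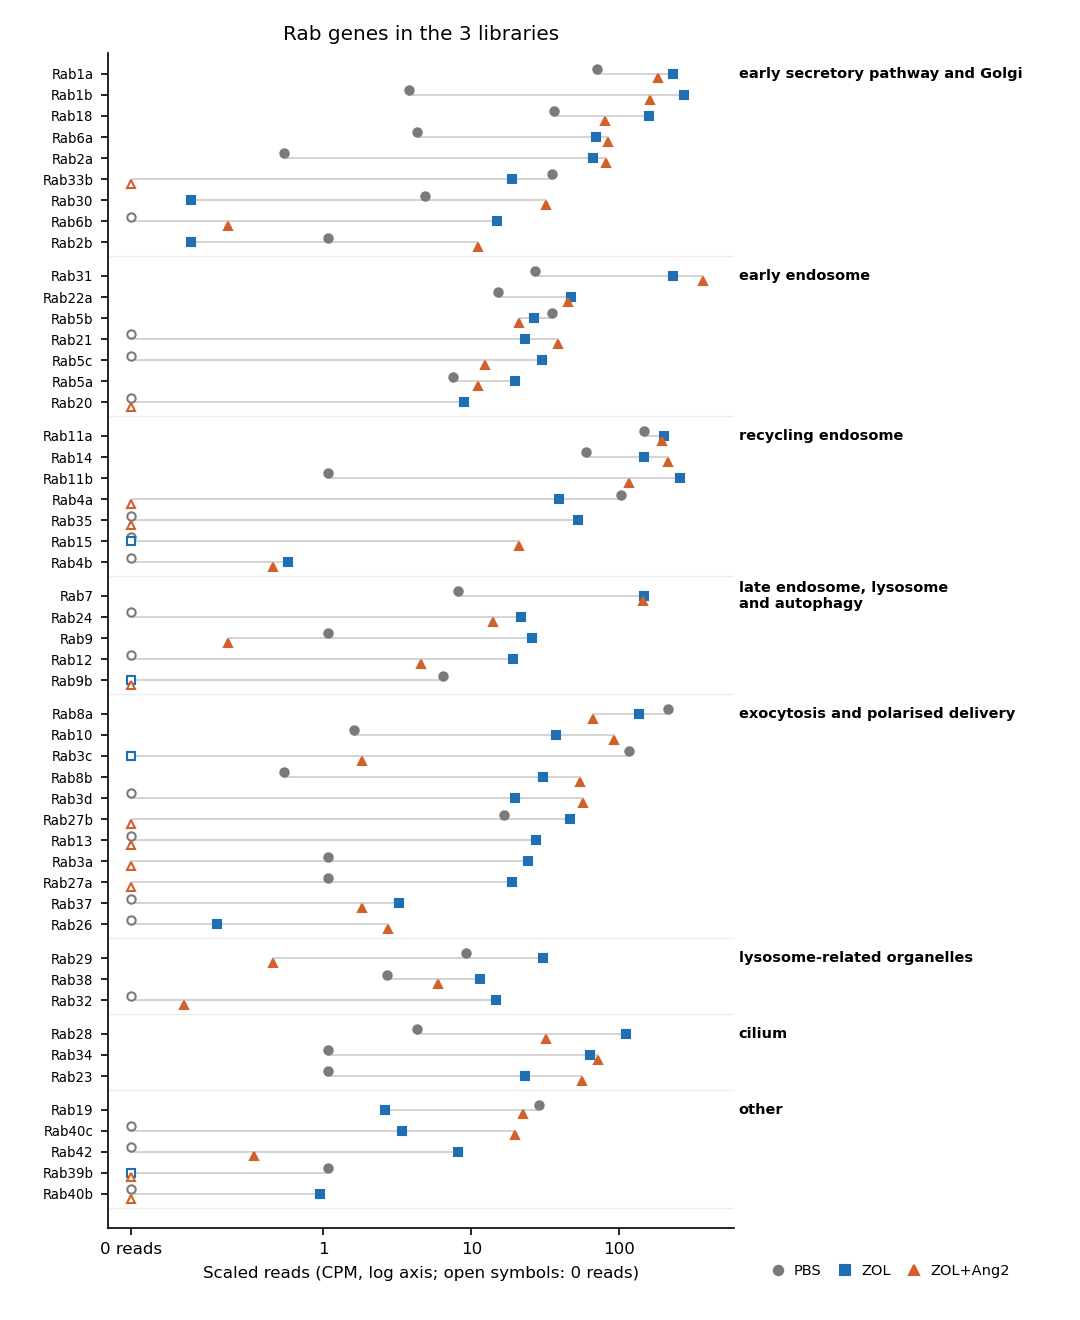
Level of each of the 50 Rab genes with reads in any library (CPM, log axis), grouped by site of action; grey circles are PBS, blue squares ZOL and orange triangles ZOL+Ang2, and open symbols mark 0 reads. Most PBS values lie to the left of those of the other libraries, with Rab8a, Rab4a, Rab3c and Rab19 among the exceptions.

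The leading members differed between the libraries. By RPKM, the highest in PBS were Rab4a at 97.0, Rab11a at 82.0, Rab8a at 75.4, Rab1a at 31.0 and Rab19 at 30.04, and these 5 made up 73.0% of the summed Rab RPKM. Under ZOL the highest were Rab1b at 80.3, Rab11a at 44.3, Rab31 and Rab1a at 40.2 each and Rab7 at 37.5, together 45.8% of the sum. Under ZOL+Ang2 they were Rab31 at 72.6, Rab1b at 53.2, Rab11a at 48.7, Rab7 at 41.2 and Rab1a at 35.8, together 53.8%. Rab11a and Rab1a were in the leading 5 of every library, whereas Rab4a was first in PBS and had 0 reads under ZOL+Ang2.

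By site of action, recycling endosome Rabs held 43.2% of the Rab RPKM in PBS, 20.1% under ZOL and 16.7% under ZOL+Ang2. Early secretory and Golgi Rabs held 14.5%, 32.9% and 31.6%. Early endosome Rabs held 7.26%, 12.7% and 19.8%, and late endosome, lysosome and autophagy Rabs 2.05%, 11.1% and 10.2%. The order of the groups thus differed between PBS, where recycling and exocytic Rabs led, and the other libraries, where the early secretory group led. Exocytic Rabs held 22.3%, 10.4% and 10.7%, cilium Rabs 0.588%, 6.74% and 7.03%, and Rabs of lysosome-related organelles 3.05%, 4.29% and 0.659%. In PBS, Rab4a and Rab11a held most of the recycling share and Rab8a most of the exocytic share. A lower share need not mean a lower level. In CPM, at the scaling used, recycling Rabs summed to 312 in PBS, 697 under ZOL and 545 under ZOL+Ang2. Exocytic Rabs summed to 350, 343 and 275 CPM.

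**Figure D2:**
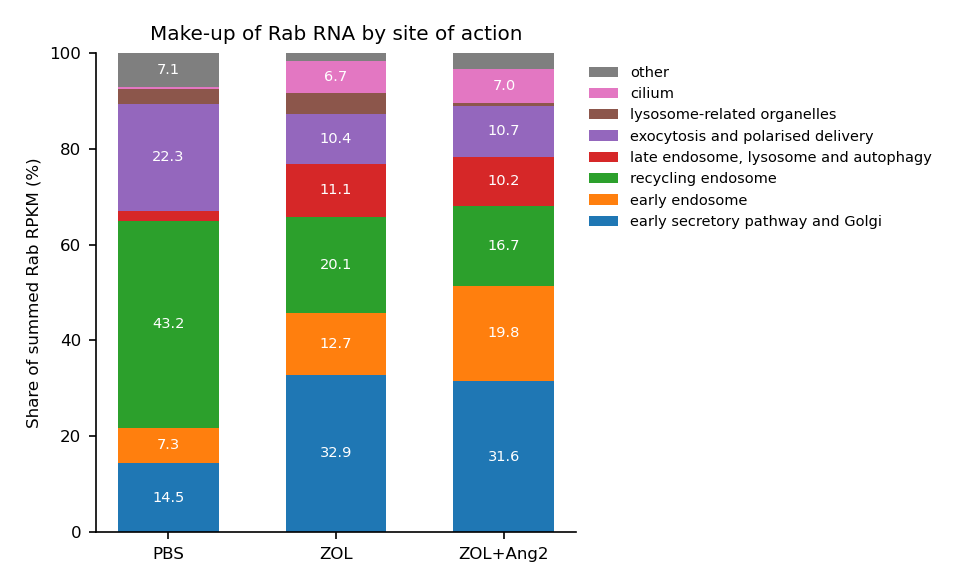
Share of the summed Rab RPKM held by each site of action in each library (percent, 1 stacked bar per library). Recycling endosome Rabs take 43.2% in PBS and 16.7% under ZOL+Ang2, while early secretory Rabs take 14.5% and 31.6%.

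For comparisons between libraries, genes whose CPM averaged 10 or more across the libraries were kept, 10942 in all. Of the 59 members, 31 were kept and 28 were not; 8 of the 31 reached 10 CPM in every library and 4 in 1 library alone. A gene was counted as higher or lower when it was at least 2-fold apart after 5 CPM was added to both levels, while the fold given for a named gene is the plain ratio of CPM with its 95% interval. The counts describe these libraries, and no test stands behind them. A member kept through the 1 library in which it was high had to differ, so the counts do not support a statement on the whole family. The comparisons share libraries and are not independent of each other. Folds against PBS also depend on the scaling: on the deposited RPKM scale, the ratio of ZOL to PBS is 0.400 times that in CPM for genes whose reads came out whole, and that of ZOL+Ang2 to PBS is 0.451 times. With median-of-ratios scaling these factors are 0.547 and 0.627. The ratio of ZOL+Ang2 to ZOL moves less, by 1.13 and 1.15 times.

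In ZOL against PBS, most of the Rab genes compared were higher under ZOL, across the secretory, endosomal, late endosomal and cilium groups. Of 31 members, 22 were at least 2-fold higher, or 71.0%, beside 49.2% of all genes compared, and 3 were at least 2-fold lower, or 9.68%, beside 29.4%. The median log2 fold of the members was 2.204 against 0.94 for all genes, a difference of 1.26. Among the 31, 6 had 0 reads in either library, and with those set to the limit of 3 reads the median was 2.204 as well. That step could not have moved the median, because each of the 6 stayed on its side of it. The lower members were Rab19, Rab3c and Rab4a, and Rab5a, Rab5b, Rab8a, Rab11a, Rab30 and Rab33b were within 2-fold. With median-of-ratios scaling in place of TMM, the median of all genes was -0.17, and the split was 16 higher and 7 lower among 30 members, beside 37.4% and 41.7% of all genes. Among the 15 members with at least 10 reads in both libraries, 8 were higher and 2 lower, beside 30.4% and 30% of all such genes. The summed level of the epithelial and carcinoma markers was also higher under ZOL than in PBS, at 4738 against 591 CPM, and of the 7 compared 5 were higher and 1 lower. The keratins Krt8 and Krt18 held most of that sum, at 2451 and 1911 CPM under ZOL, whereas Elf3 was at 49.5 CPM in PBS and 0.446 CPM under ZOL and Cdh1 was at 165 CPM in PBS and 84.8 CPM under ZOL. Their part in the Rab levels was not tested.

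Early secretory Rabs gave some of the widest differences in ZOL against PBS. Rab1b, which acts with Rab1a in transport from the endoplasmic reticulum to the Golgi, stood at 3.77 CPM in PBS, 275 CPM under ZOL and 162 CPM under ZOL+Ang2, and was 73.1-fold higher under ZOL than in PBS (interval 35.4 to 182), or 27.5-fold by RPKM. Rab1a stood at 71.0, 230.2 and 182 CPM and was 3.24-fold higher under ZOL (2.72 to 3.88), a difference that stayed under 2-fold on the deposited RPKM scale and with median-of-ratios scaling. Rab2a, which works between the endoplasmic reticulum and the Golgi, had 1 read in PBS and was at 66.7 CPM under ZOL and 80.8 CPM under ZOL+Ang2. In both paralogues of Rab1 and in Rab2a, PBS was the lowest library. Rab6a, of transport at the Golgi, was at 4.31, 69.7 and 83.6 CPM, and its exons overlap those of Mrpl48 on the other strand. Rab18, of the endoplasmic reticulum and lipid droplets, was at 36.1, 158 and 80.6 CPM. By RPKM it was under 2-fold from PBS, 1.76-fold higher under ZOL and 1.01-fold higher under ZOL+Ang2. Rab33b, a Golgi Rab that binds the autophagy protein ATG16L1, went the other way, at 35.0 CPM in PBS, 18.7 CPM under ZOL and 0 reads under ZOL+Ang2. Rab30, of the Golgi, was at 4.84 CPM in PBS, 0.127 CPM (2 reads) under ZOL and 32.2 CPM under ZOL+Ang2. Rab2b had 2 reads in PBS, 2 under ZOL and 98 under ZOL+Ang2, and Rab6b was at 0 reads in PBS, 15.0 CPM under ZOL and 0.228 CPM under ZOL+Ang2.

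Among early endosome Rabs, the 3 forms of Rab5, which drive fusion of early endosomes, did not move alike. Rab5a stood at 7.53 CPM in PBS, 19.7 CPM under ZOL and 11.2 CPM under ZOL+Ang2. Rab5b was at 35.0, 26.5 and 20.9 CPM, within 2-fold in every comparison at the scaling used. Rab5c had 0 reads in PBS, 29.8 CPM under ZOL and 12.3 CPM under ZOL+Ang2, at least 18.5-fold higher under ZOL than in PBS. PBS was thus the highest library for Rab5b and the lowest for Rab5c. For Rab5a the order turned with the scale, since its RPKM was 2.37 in PBS, 2.48 under ZOL and 1.59 under ZOL+Ang2. Rab31, which with Rab22a belongs to the Rab5 branch and acts between the trans-Golgi network and endosomes, was at 26.9, 231 and 370.3 CPM and was 8.59-fold higher under ZOL than in PBS (6.50 to 11.6), or 3.43-fold by RPKM. Rab22a was at 15.1, 47.1 and 45.2 CPM, but by RPKM only 1.25-fold higher under ZOL and 1.35-fold higher under ZOL+Ang2 than in PBS. Rab21, which binds integrins, had 0 reads in PBS and was at 22.9 and 38.8 CPM under ZOL and ZOL+Ang2, and Rab20 had reads under ZOL alone, at 8.85 CPM.

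Recycling Rabs were split. Rab11a, the main Rab of the slow recycling endosome, was at 148 CPM in PBS, 199.96 CPM under ZOL and 195 CPM under ZOL+Ang2, within 2-fold in every comparison; by RPKM it was highest in PBS. Its paralogue Rab11b had 2 reads in PBS against 258 CPM under ZOL and 116 CPM under ZOL+Ang2, a ratio of 239 in ZOL against PBS (66.2 to 1978). By RPKM that ratio was 95.4. Rab4a, of the fast recycling route, was at 103 CPM in PBS, 39.4 CPM under ZOL and 0 reads under ZOL+Ang2, at 2.61-fold lower under ZOL than in PBS (2.21 to 3.08), or 6.53-fold by RPKM. PBS was the highest library for Rab4a and the lowest for Rab11b. Rab14, between the Golgi and endosomes, was at 59.7, 147 and 212 CPM, but on the deposited RPKM scale its log2 fold in ZOL against PBS was -0.02. Rab35, of the recycling of plasma membrane proteins, had 0 reads in PBS, 52.4 CPM under ZOL and 0 reads under ZOL+Ang2. Rab4b stayed at or under 0.573 CPM in every library.

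Rab7, the main Rab of late endosomes and lysosomes, was at 8.07 CPM in PBS, 148 CPM under ZOL and 144 CPM under ZOL+Ang2, and was 18.3-fold higher under ZOL than in PBS (11.1 to 32.8), or 7.32-fold by RPKM. Rab24, linked to autophagy, had 0 reads in PBS and was at 21.8 and 13.9 CPM under ZOL and ZOL+Ang2; its exons overlap Prelid1 on the other strand. Rab9, of the return from late endosomes to the trans-Golgi network, was at 1.08, 25.7 and 0.228 CPM, so that ZOL alone was high. Rab12 was at 0 reads, 19.1 CPM and 4.56 CPM, and Rab9b had 12 reads in PBS and none elsewhere. Among cilium Rabs, Rab34 was at 1.08, 63.4 and 71.8 CPM, Rab28 at 4.31, 111 and 31.8 CPM and Rab23, an inhibitor of hedgehog signalling, at 1.08, 23.0 and 56.2 CPM. All of these cilium Rabs were lowest in PBS, where Rab34 and Rab23 had 2 reads each.

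Exocytic Rabs went both ways. Rab8a, of delivery to the plasma membrane and to the cilium, was at 213 CPM in PBS, 136 CPM under ZOL and 66.5 CPM under ZOL+Ang2. ZOL was within 2-fold of PBS in CPM and 3.92-fold lower by RPKM. Its relatives Rab8b and Rab10 were at 0.538 and 1.61 CPM in PBS, from 1 and 3 reads. They were at 30.4 and 37.1 CPM under ZOL and 53.9 and 91.5 CPM under ZOL+Ang2, the reverse order of libraries. Rab10 overlaps the antisense gene Rab10os. Rab13, of junction traffic, was at 27.3 CPM under ZOL with 0 reads in both other libraries. Rab3c, a synaptic vesicle Rab, was at 116 CPM in PBS, 0 reads under ZOL and 1.82 CPM under ZOL+Ang2, and so was at least 608-fold lower under ZOL than in PBS. Rab3d, found on secretory granules, was at 0 reads, 19.8 CPM and 56.8 CPM. Rab26 and Rab37 stayed at or under 3.25 CPM in every library.

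Rab3a, Rab27a and Rab27b, which act in regulated secretion, were highest under ZOL and without reads under ZOL+Ang2. Rab3a was at 1.08 CPM in PBS and 24.1 CPM under ZOL, and Rab27a at 1.08 and 18.7 CPM. Rab27b was at 16.7 and 46.7 CPM, but only 1.12-fold higher under ZOL than in PBS by RPKM. Against ZOL, the levels of Rab3a, Rab27a and Rab27b under ZOL+Ang2 were at least 70.4-fold, 54.7-fold and 136-fold lower. The summed level of 7 neuronal and endocrine granule markers was 133 CPM in PBS, 527 CPM under ZOL and 4.79 CPM under ZOL+Ang2, with reads for 4, 7 and 2 of them. Chgb, a granule protein, was at 1.08 CPM in PBS, 430.3 CPM under ZOL and 0 reads under ZOL+Ang2, and so held most of the sum under ZOL. Of the other markers, Snap25 was at 75.9 CPM in PBS and 49.9 CPM under ZOL, Syt1 at 33.4 and 4.33 CPM, and Scg2 at 22.6 and 16.4 CPM. Of the 4 markers compared, 1 was higher and 1 lower in ZOL against PBS. The part of such cells in the levels of the secretory Rabs was not tested.

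**Figure D3:**
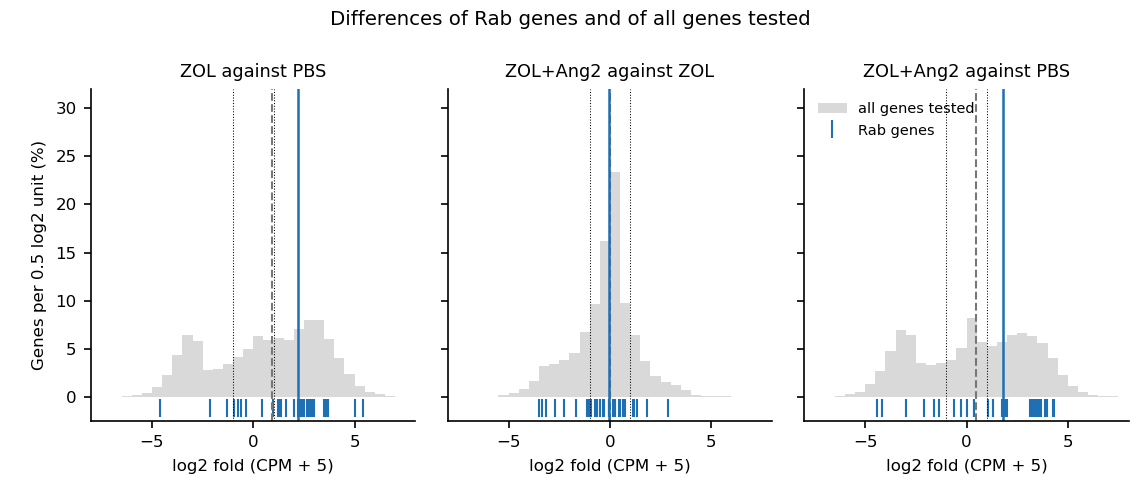
Log2 fold (5 CPM added to both levels) of all genes compared, as grey histograms in percent of genes, and of the 31 Rab genes, as blue ticks, for each pair of libraries; dotted lines mark 2-fold, the dashed grey line the median of all genes and the blue line that of the Rab genes. In ZOL against PBS 22 members lie right of the 2-fold lines and 3 left of them, and for ZOL+Ang2 against ZOL it is 5 and 8.

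In ZOL+Ang2 against ZOL, the Rab genes as a group lay with the rest of the genes. Of 31 members, 5 were at least 2-fold higher, or 16.1%, beside 16.2% of all genes compared, and 8 were at least 2-fold lower, or 25.8%, beside 24.8%. The median log2 fold was -0.05 against -0.02 for all genes, and 18 members were within 2-fold. The higher members were Rab3d, Rab10, Rab19, Rab23 and Rab30, and the lower ones were Rab4a, Rab5c, Rab11b, Rab27b, Rab28, Rab29, Rab33b and Rab35. Among the 24 members with at least 10 reads in both libraries, 4 were higher and 3 lower, beside 17.8% and 21.6% of all such genes. With PBS left out of the filter and of the scaling, 7 of 35 members were higher and 10 lower, beside 19.9% and 29.1% of all genes.

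Several members were all or none in ZOL+Ang2 against ZOL. Rab4a had 618 reads under ZOL and none under ZOL+Ang2, at least 115-fold lower. Rab35 had 822 reads under ZOL and none under ZOL+Ang2, at least 153-fold lower, and Rab13 had 429 and none, at least 79.9-fold lower. Rab15, of the recycling endosome, went the other way, with 0 reads in PBS and ZOL and 184 reads under ZOL+Ang2, at least 110-fold higher than under ZOL. Among the 28 members of at least 20 CPM under ZOL, 5 had 0 reads under ZOL+Ang2, or 17.9%, beside 9.99% of all genes of that level. In the other direction it was 1 of 23 members, beside 3.77%. In PBS, 5 of the 28 had 0 reads, beside 26.5% of all genes, and so did 3 of the 23 members of that level under ZOL+Ang2, beside 25.2%. Of the 11 members of at least 20 CPM in PBS, 1 had 0 reads under ZOL, beside 28.8%, and 2 had 0 reads under ZOL+Ang2, beside 33.8%.

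Rab29, a Rab of lysosomes and the trans-Golgi network that is tied to the kinase LRRK2, was at 9.15 CPM in PBS, 30.5 CPM under ZOL and 0.456 CPM under ZOL+Ang2. It was 66.9-fold lower under ZOL+Ang2 than under ZOL (26.0 to 247). By RPKM it was only 1.33-fold higher under ZOL than in PBS. Its relatives of melanosomes and platelet granules, Rab32 and Rab38, were at 0 reads and 2.69 CPM in PBS, 14.8 and 11.4 CPM under ZOL and 0.114 and 5.93 CPM under ZOL+Ang2. All of these were highest under ZOL. Rab28 was 3.49-fold lower under ZOL+Ang2 than under ZOL (3.07 to 3.97) and Rab11b 2.22-fold lower (2.07 to 2.38). Rab19 was at 28.5, 2.61 and 22.5 CPM, lowest under ZOL and 8.60-fold higher under ZOL+Ang2 than under ZOL (6.12 to 12.4). Rab10 was 2.46-fold higher (2.21 to 2.74), Rab23 2.45-fold higher (2.13 to 2.81), Rab3d 2.87-fold higher (2.48 to 3.31) and Rab31 1.60-fold higher (1.53 to 1.68). Of the members not kept for comparison, Rab40c was at 0 reads, 3.38 CPM and 19.7 CPM, and Rab42 at 0 reads, 8.09 CPM and 0.342 CPM. Rab39b and Rab40b stayed at or under 1.08 CPM in every library.

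In ZOL+Ang2 against PBS, 20 of 31 members were at least 2-fold higher, beside 44.2% of all genes compared, and 6 were at least 2-fold lower, beside 33.1%. The median log2 fold lay 1.31 above that of all genes. The lower members were Rab3c, Rab4a, Rab8a, Rab27b, Rab29 and Rab33b. Rab31 was 13.8-fold higher under ZOL+Ang2 than in PBS (10.4 to 18.6), Rab7 17.8-fold higher (10.8 to 31.9) and Rab14 3.55-fold higher (2.93 to 4.34), while Rab8a was 3.20-fold lower (2.81 to 3.64). By RPKM, Rab31 was 6.20-fold, Rab7 8.02-fold and Rab14 1.60-fold higher, the last under 2-fold, and Rab8a was 7.09-fold lower. Of the 12 members with at least 10 reads in both libraries, 6 were higher and 2 lower, beside 30.5% and 31.9% of all such genes. With median-of-ratios scaling, 16 were higher and 7 lower among 30 members, beside 36.5% and 42.9% of all genes.

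Ratios between close relatives within 1 library do not depend on the scaling between libraries. The RPKM of Rab1b was 0.0941 times that of Rab1a in PBS (interval 0.0371 to 0.199), 2.00 times under ZOL (1.91 to 2.09) and 1.49 times under ZOL+Ang2 (1.38 to 1.60), so Rab1a led in PBS and Rab1b in the others. Rab11b to Rab11a gave 0.00356 in PBS from 2 reads of Rab11b (0.000429 to 0.0130), 0.629 under ZOL (0.6003 to 0.659) and 0.291 under ZOL+Ang2 (0.269 to 0.315). Rab11a led Rab11b in all 3 libraries. Rab10 to Rab8a gave 0.0101 in PBS (0.00208 to 0.0298), 0.364 under ZOL (0.332 to 0.399) and 1.83 under ZOL+Ang2 (1.64 to 2.04), and Rab8b to Rab8a gave 0.00250, 0.221 and 0.802. Both ratios were lowest in PBS and highest under ZOL+Ang2. Rab31 to Rab22a gave 3.37 in PBS (2.08 to 5.57), 9.28 under ZOL (8.57 to 10.1) and 15.5 under ZOL+Ang2 (14.0 to 17.2), with intervals that do not meet. Rab5b to Rab5a gave 5.82 (3.23 to 11.2), 1.68 (1.45 to 1.96) and 2.34 (1.82 to 3.03), highest in PBS. Rab27b and Rab27a stood at a ratio of 0.906 under ZOL (0.790 to 1.04), where their levels per length did not differ beyond counting error.

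**Figure D4:**
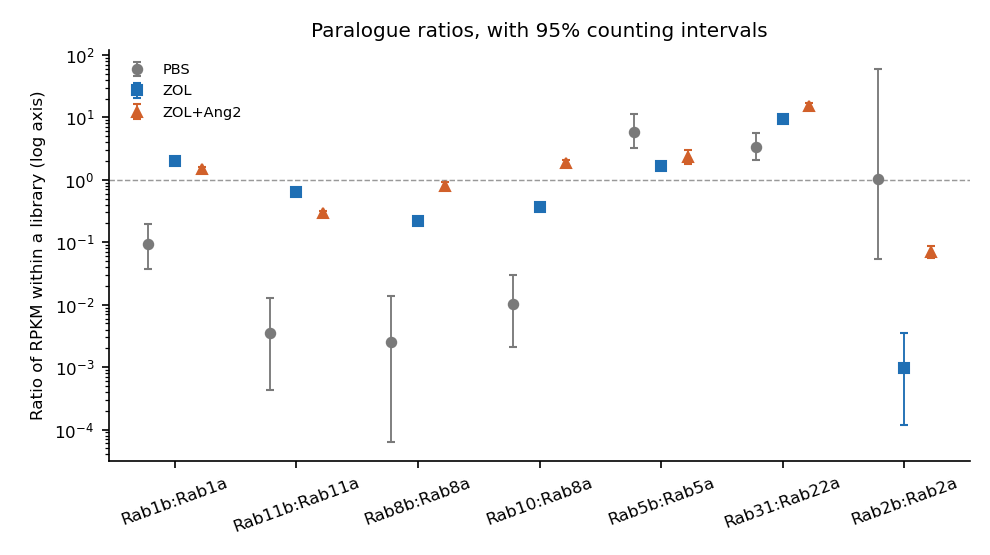
RPKM ratio of the first to the second member of close Rab pairs within each library (log axis), with exact 95% binomial intervals as bars. Rab10 to Rab8a moves from 0.0101 in PBS to 1.83 under ZOL+Ang2, and Rab1b to Rab1a from 0.0941 in PBS to 2.00 under ZOL.

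The genes that prenylate and carry Rabs were followed as a list of 9, of which 7 were kept for comparison. In ZOL against PBS, 4 were at least 2-fold higher and 2 lower, or 57.1% and 28.6%, beside 49.2% and 29.4% of all genes. Under ZOL+Ang2, set against ZOL, none was higher and 2 were lower, beside 16.2% and 24.8%. Rabggta, the alpha subunit of Rab geranylgeranyl transferase, had 0 reads in PBS, 784 reads (49.9 CPM) under ZOL and 7 reads (0.798 CPM) under ZOL+Ang2, and was 62.6-fold lower under ZOL+Ang2 than under ZOL (30.2 to 156). The beta subunit Rabggtb was at 1.61, 40.1 and 69.0 CPM, so that the subunits were both low in PBS and parted under ZOL+Ang2. The escort proteins Chm and Chml were highest in PBS, Chm at 61.3, 25.4 and 4.68 CPM and Chml at 71.0, 5.35 and 7.98 CPM. Gdi2, a GDP dissociation inhibitor, was lowest in PBS, at 45.7, 249 and 435 CPM. Rabac1, which takes Rabs off the inhibitors at membranes, was at 99.6, 325 and 178 CPM. Of the enzymes that supply the lipid, Ggps1, geranylgeranyl diphosphate synthase, was at 61.9, 38.03 and 30.3 CPM, and Fdps, farnesyl diphosphate synthase, had 0 reads in PBS and 11.2 and 3.65 CPM under ZOL and ZOL+Ang2. Icmt, which methylates prenylated ends, had 0 reads in PBS and under ZOL+Ang2 and 27.5 CPM under ZOL.

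**Figure D5:**
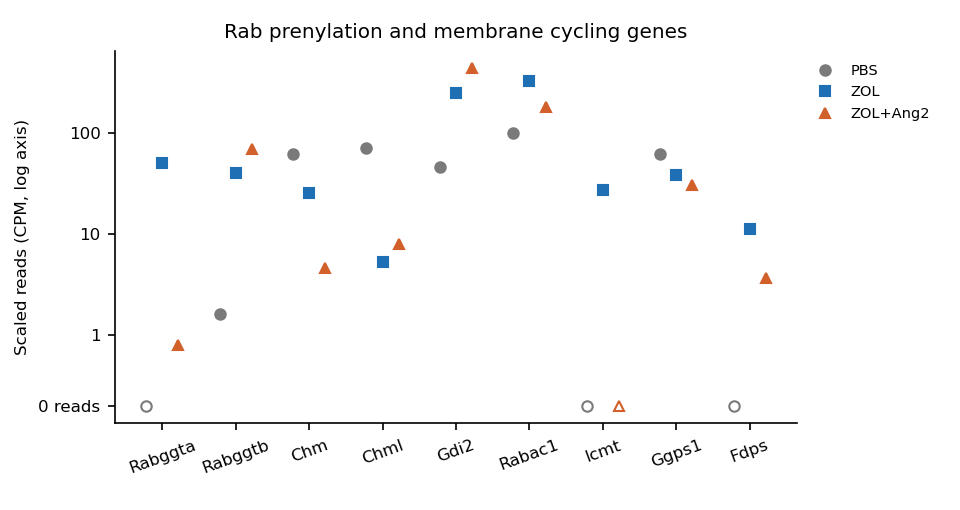
Levels of the 9 genes of Rab prenylation and membrane cycling in the 3 libraries (CPM, log axis; open symbols mark 0 reads). Chm and Chml are highest in PBS at 61.3 and 71.0 CPM, and Gdi2 is highest under ZOL+Ang2 at 435 CPM.

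Across all 5 lists of Rab partners, 90 of 128 genes were kept for comparison. In ZOL against PBS, 52 of the 90 were at least 2-fold higher, or 57.8%, beside the 49.2% of all genes, and 20 lower, or 22.2%, beside 29.4%. In ZOL+Ang2 against ZOL, 14 were higher, or 15.6%, beside 16.2%, and 30 lower, or 33.3%, beside 24.8%. In ZOL+Ang2 against PBS, 43 were higher, or 47.8%, beside 44.2%, and 22 lower, or 24.4%, beside 33.1%.

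Of 25 exchange factors compared, 17 were higher and 5 lower in ZOL against PBS, or 68% and 20%, beside 49.2% and 29.4% of all genes. Under ZOL+Ang2, against ZOL, 3 were higher and 10 lower, or 12% and 40%, beside 16.2% and 24.8%. Rabif, which binds exocytic Rabs free of nucleotide, had 0 reads in PBS and was at 98.9 and 106 CPM under ZOL and ZOL+Ang2. Rgp1 and Ric1 form the exchange factor of Rab6, and they went opposite ways, with Rgp1 at 1.08, 86.8 and 10.5 CPM and Ric1 at 63.5, 5.22 and 32.7 CPM. Rab3il1, an exchange factor of Rab3 and Rab8 proteins, was at 1.61, 21.02 and 177 CPM and was 8.42-fold higher under ZOL+Ang2 than under ZOL (7.47 to 9.51). Ankrd27, the exchange factor of Rab21 that also binds Rab32 and Rab38, was at 113 CPM in PBS, 24.5 CPM under ZOL and 0 reads under ZOL+Ang2. Dennd4b, an exchange factor of Rab10, was at 94.7 and 9.55 CPM in PBS and ZOL with 0 reads under ZOL+Ang2, and Dennd5b at 109, 11.1 and 7.41 CPM.

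Of 26 GTPase-activating genes compared, 17 were higher and 5 lower in ZOL against PBS, or 65.4% and 19.2%, beside 49.2% and 29.4%. In the comparison of ZOL+Ang2 with ZOL, 4 were higher and 13 lower, or 15.4% and 50%, beside 16.2% and 24.8%. Tbc1d1 had 1325 reads under ZOL, at 84.4 CPM, and none in the other libraries. Tbc1d20, which acts on Rab1 and Rab18, was at 1.08, 86.4 and 22.8 CPM, and Tbc1d22a at 1.08, 79.6 and 0.456 CPM, both highest under ZOL. Tbc1d5, which acts on Rab7, was at 92.6, 4.20 and 26.0 CPM, and Tbc1d8b was at 108, 0.127 and 12.8 CPM, both lowest under ZOL. Tbc1d23, a bridge for vesicles at the trans-Golgi network, was at 19.9, 8.60 and 61.1 CPM.

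Of 28 effectors compared, 12 were higher and 8 lower in ZOL against PBS, or 42.9% and 28.6%, close to the 49.2% and 29.4% of all genes. Against ZOL, 6 were higher and 3 lower under ZOL+Ang2, or 21.4% and 10.7%, beside 16.2% and 24.8%. The dynein adaptors Bicd1 and Bicd2, which bind Rab6, took opposite orders, with Bicd1 at 192, 4.46 and 0.798 CPM and Bicd2 at 0 reads, 70.5 CPM and 115 CPM. The Rab5 effectors Rabep1 and Eea1 were both at least 2-fold lower under ZOL than in PBS and parted under ZOL+Ang2, with Rabep1 at 247, 80.7 and 23.3 CPM and Eea1 at 56.0, 16.3 and 112 CPM. Vps39 and Vps41, subunits of the HOPS tether that works with Rab7, were at 0 reads, 23.0 CPM and 91.0 CPM and at 28.0, 49.9 and 16.4 CPM. Ehbp1l1, an effector of Rab8 and Rab10, was at 2.15, 74.2 and 81.5 CPM. The kinase Lrrk2, which phosphorylates Rab8 and Rab10, was at 23.1, 10.8 and 70.9 CPM, its relative Lrrk1, which phosphorylates Rab7, at 30.1, 147 and 69.8 CPM, and Ppm1h, the phosphatase of Rab8 and Rab10, at 11.3, 22.1 and 37.4 CPM.

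The labels do not say how the counting treated strand. The exons of 20 members overlap exons of other genes, Rab2b, Rab3a, Rab5a, Rab6a, Rab7, Rab10, Rab11b, Rab22a, Rab24 and Rab33b among them, and their values are less certain for that reason. Rab11a, Rab18 and Rab27a are also among the 20, and overlap genes on the same strand, where strand cannot separate the reads.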

How the data were processed

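The deposited files held RPKM values per gene for 3 libraries, each from 6 pooled mice, which the authors computed with a library total that no label or header defines. The submitters' processing notes list featureCounts 2.0.6, HISAT2 2.2.1, fastp and the mm10 genome. Messenger RNA was amplified at full length, per the labels' protocols. Symbols, exon lengths and coding sequences came from GENCODE M21, and 37 genes without a length were left out. RPKM times length gave whole reads for 96.8%, 96.4% and 96.2% of the nonzero values (tolerance 0.01; order PBS, ZOL, ZOL+Ang2). Rab1b, Rab11b and Rab18 did not come out whole, so their read numbers are approximate. The reads sum to 1.50, 0.701 and 0.785 times the totals the values imply, and whether they are the authors' counts is not known.

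Reads were scaled with TMM factors of 1.11, 0.946 and 0.953, computed in Python 3.11.15 with trims of 30% and 5%. The filter was a mean of 10 CPM, the prior 5 CPM and the call 2-fold. Intervals are exact 95% binomial intervals, conditional on both libraries' reads for folds. A gene with 0 reads was set to 3 reads per library for bounds. These bounds follow the scaling used and carry no interval of their own. With 1 library per group no p-value exists, and no count model such as those for replicated reads was fitted. Of the steps, only the scaling and the 2-fold call were tried on simulated reads, with a small part of the genes changed. In ZOL against PBS, 49.2% of all genes compared were at least 2-fold higher, so that trial does not cover differences this wide. The read recovery, the intervals and the bounds were not simulated.

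The members, their roles and the partner and marker lists were chosen with earlier results of these data known. Named members were the 5 highest by RPKM in each library, the 6 largest folds each way above a mean of 20 CPM for ZOL against PBS and for ZOL+Ang2 against ZOL, the 3 largest each way for ZOL+Ang2 against PBS, close paralogues, and members with 0 reads in 1 library and at least 20 CPM in another. Partners named were the whole prenylation list and up to 2 highest and 2 lowest of each other list. Remaining members were named, after their values were seen, to account for all 59. 1 partner gene is not reported here and was left out of the lists. Whole proteins were not used here. Alternatives were other scalings, the deposited RPKM with pseudocounts, other priors and filters, and thinning.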

Additional observations from a re-analysis of the deposited data

How the results depend on the processing

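No paired analysis was possible because each group was 1 library, and for the same reason no replicate could be left out. Of 689 log2 folds of named members under 7 settings of scaling, unit, prior and depth, 592 kept their direction and their side of 2-fold, 40 came under 2-fold and 31 passed it. A further 24, of Rab11a, Rab38, Rab5a and Rab7, changed sign within 2-fold; Rab11a in ZOL against PBS, at 0.42 in CPM, ranged from -0.89 to -0.24 in 4 of them. In 2, a fold of at least 2 changed sign: Rab14 in ZOL against PBS stood at -0.022 with the deposited RPKM and a pseudocount of 1 and at -0.025 with 0.1. Part of the 592 was fixed in advance. A gene with 0 reads in 1 of the libraries compared cannot change sign, and a prior of 1 CPM can only widen a fold. In ZOL against PBS, the number of Rab genes at least 2-fold lower was 7 of 30 with median-of-ratios scaling, beside 41.7% of all genes. It was 6 of 31 with TMM over nuclear protein-coding genes, beside 36.2%. RPKM with a pseudocount of 1 and 0.1 gave 6 and 7 of 31, beside 39.6% and 41.2%. Thinning gave 6 of 29, beside 38.6%, and a filter of 50 CPM gave 0 of 10, beside 15.5%. The share of all genes, 29.4% at the main setting, thus moved with the setting too. That filter left 8 of 10 Rab genes and 12 of 18 partners higher, beside 57.3% of all genes, and 3 partners lower, beside 15.5%. A minimum of 10 reads in both libraries left 8 of 15 Rab genes and 12 of 42 partners higher, beside 30.4%. A prior of 1 CPM set the median of the Rab genes 1.94 above that of all genes. In ZOL+Ang2 against ZOL, a filter of 1 CPM gave 8 Rab genes higher, 17 lower and 46 partners lower, and a filter of 50 CPM gave 0 higher and 1 lower with 3 partners in either direction. The minimum of 10 reads gave 3 Rab genes and 19 partners lower, beside 21.6% of all such genes. In ZOL+Ang2 against PBS, the filter of 50 CPM gave 8 Rab genes higher and 1 lower with 11 and 3 partners. The minimum of 10 reads gave 6 and 2 with 11 and 13 partners, beside 30.5% and 31.9% of all such genes. These filters compare fewer or more genes. For the filters of 1 and 50 CPM in comparisons with ZOL+Ang2, the share of all genes is not given here. Those counts alone do not set the Rab genes or partners apart from other genes. The summed Rab level in PBS, ZOL and ZOL+Ang2 was 1380.4, 2144 and 2079 CPM with median-of-ratios scaling, 1071, 2596 and 2212 CPM with library totals alone, and 1350.4, 2940 and 2698 CPM with TMM over nuclear protein-coding genes. Alternatives with the minimum of 10 reads, without PBS, and for the partner counts were chosen after seeing the data. Depth limits PBS most, where 11 members had 1 to 3 reads.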
